A study of Homo sapiens with 8 samples.

Results

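The corepressor machinery that MXD proteins use was examined as 10 genes: the scaffolds SIN3A and SIN3B, the histone deacetylases HDAC1, HDAC2 and HDAC3, the SIN3-associated subunits SAP30 and SAP18, the histone-binding subunits RBBP4 and RBBP7, and the corepressor NCOR1. They were chosen by function, with earlier results of these data known. Every probe of the deposited non-normalized table whose symbol in the platform annotation was on the list was taken. Of the 22184 probes, 9 matched, 1 for each of 9 of the 10 genes. All 9 were detected on 8 of 8 arrays and passed the filter on low signal. NCOR1 had no probe in the annotation used and was not analysed here.

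MXD proteins pair with MAX on E-box DNA and carry a short N-terminal helix that binds SIN3A or SIN3B. SIN3 is the scaffold on which HDAC1 and HDAC2 are held, with SAP30, SAP18, RBBP4 and RBBP7 as further subunits. The deacetylases remove acetyl groups from histone tails at the bound genes, which represses transcription. HDAC3 works mainly in a separate complex built on NCOR1. The arrays measured the mRNA of these genes, not protein, complex assembly or binding.

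The cells were DAOY, an established human medulloblastoma line. RNA came from 5 stable lines transfected with pHM6-MXD3, called MXD3 lines 1 to 5, from 2 stable lines with the pHM6 plasmid alone, called vector lines 1 and 2, and from untransfected parental DAOY, with 1 Illumina bead array for each. The stable lines were kept in 800 µg/ml G418, and the labels do not say whether each is a clone or was cultured separately, so p-values measure only the spread between these samples, which may be technical. Levels are log2 intensities after background correction and quantile normalization, and 15214 probes detected on at least 2 arrays were tested.

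Between 60.5% and 64.0% of probes had a detection p-value below 0.05 on an array. The MXD3 probe read 8.08, 7.47, 7.22, 6.98 and 6.18 in the lines labelled MXD3 4, 1, 2, 3 and 5 in that order, against 6.93 and 6.71 with vector alone and 6.59 in parental DAOY. The line labelled MXD3 5 thus lay below all 3 controls and the other 4 above them. The difference from the 3 controls was 0.44 ± 0.35 (SE, adjusted p = 0.655), and the sources used here do not say whether this probe reads the transgene. Because the MXD3 probe read below all controls in the line labelled MXD3 5, each corepressor difference is also given without that line. Of the markers of neural precursors, SOX2 and OTX2 were detected on 8 of 8 arrays, and NES, ATOH1 and ZIC1 on 0. Of the markers of other cell types that had a probe, 3 of 5 neuronal, 1 of 4 glial, 0 of 4 blood, 1 of 5 endothelial, 1 of 5 epithelial and 4 of 4 mesenchymal ones were detected on 8 of 8 arrays. The mesenchymal markers VIM, COL1A1, THY1 and FN1 had a mean deviation from their 8-array mean of -0.05 to 0.23 in the MXD3 lines and -0.30 to -0.02 in the controls. Over the markers that passed the filter, other lists varied too. These ranges were -0.32 to 0.12 and -0.25 to 0.65 for neuronal, -0.32 to 0.42 and -0.81 to 0.35 for glial, and -0.28 to 0.36 and -0.06 to 0.17 for blood markers. The part of any marker list in the corepressor values was not tested.

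None of the 9 corepressor genes passed the adjusted p threshold of 0.05 in any comparison. Against the vector and parental lines together, 5 genes had a higher mean in the MXD3 lines and 4 a lower one, and the differences ran from -0.28 for SAP30 to 0.27 for SIN3B. The median of the 9 differences was 0.000334, beside -0.000420 over all probes tested, and the median size was 0.121, beside 0.173. Over all probes, 0% were called at an adjusted p below 0.05 in this comparison, and the smallest adjusted p was 0.247. At an unadjusted p below 0.05 there were 0 of the 9 corepressor genes, beside 11.3% of all probes. Against the vector lines alone, again 5 genes were higher and 4 lower, 0 had an unadjusted p below 0.05, and the backgrounds were 0% and 7.57%.

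**Figure D1:**
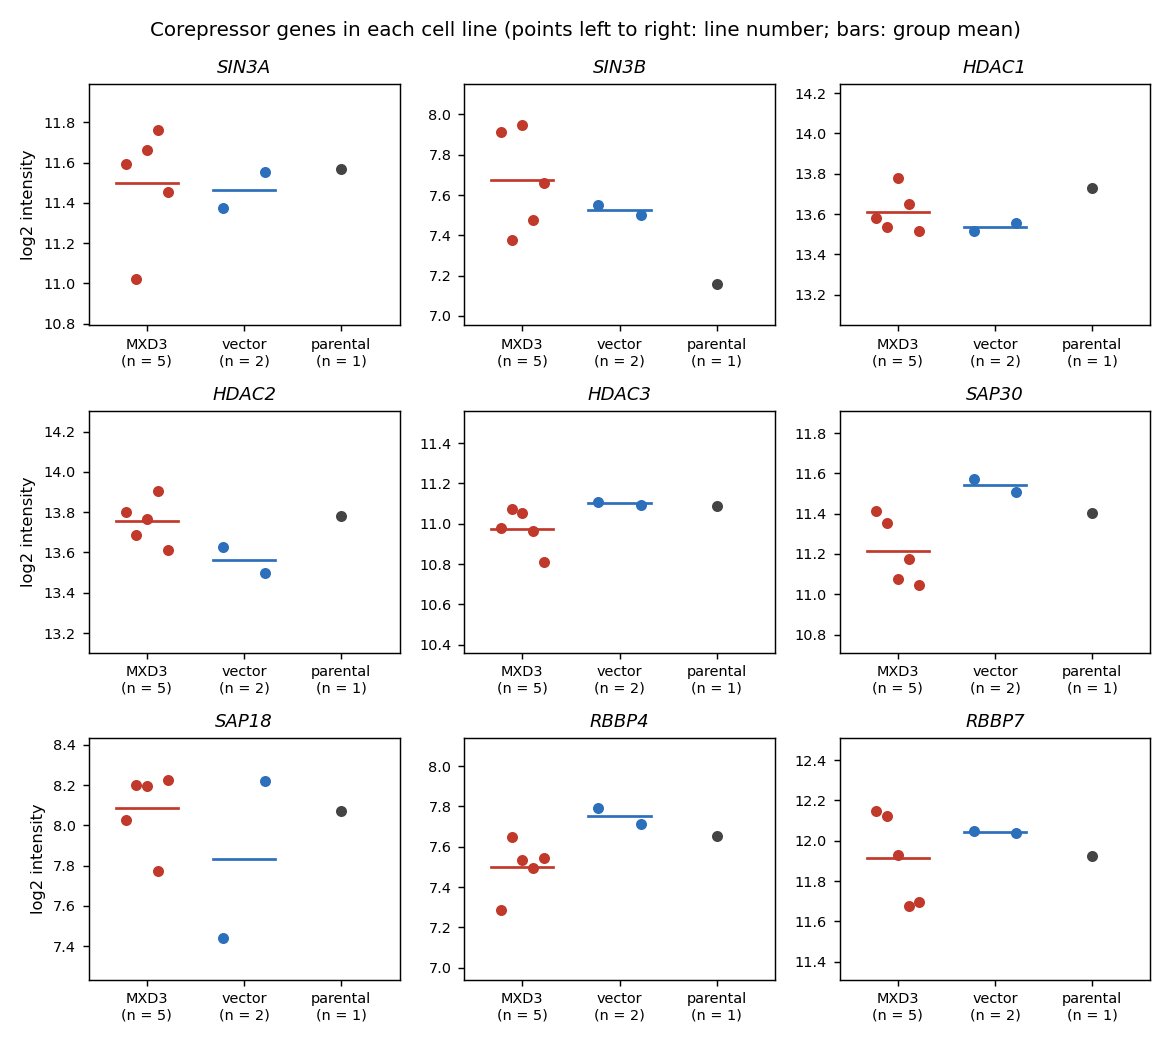
Log2 intensity of the 9 corepressor genes in each of the 8 samples; each panel spans the same log2 range, points are single arrays in order of line number and bars are group means. The MXD3 points of HDAC3 and RBBP4 lie below all 3 controls, whereas those of SIN3A and RBBP7 lie on both sides.

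SIN3A, the scaffold present in most cell types, read 11.59, 11.02, 11.66, 11.76 and 11.46 across MXD3 lines 1 to 5, 11.38 and 11.55 with vector alone, and 11.57 in parental DAOY. MXD3 line 2 was the lowest of the 8 samples and MXD3 line 4 the highest, so the MXD3 lines enclosed the controls. The MXD3 mean was 11.50 ± 0.29 (SD, n = 5), and the control mean 11.50 ± 0.11 (SD, n = 3). The difference was 0.00 ± 0.18 (SE, adjusted p = 0.999), with a 95% interval from a 0.761-fold to a 1.32-fold level, and 0.03 ± 0.21 against the vector lines (adjusted p = 0.975). Without the line labelled MXD3 5 the difference from the controls was 0.01.

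SIN3B, the paralogous scaffold, read 7.92, 7.38, 7.95, 7.48 and 7.66 across MXD3 lines 1 to 5, 7.55 and 7.50 with vector alone, and 7.16 in parental DAOY. MXD3 lines 1, 3 and 5 lay above all controls, lines 2 and 4 lay below both vector lines, and the parental cells were lowest. SIN3B had the largest rise in mean among the 9 genes, 0.27 ± 0.18 (SE), which did not pass the test (adjusted p = 0.581), with a 95% interval from 0.919-fold to 1.59-fold. The size of the difference turned on the parental array: it was 0.15 ± 0.19 (SE) against the vector lines (adjusted p = 0.872) and 0.52 ± 0.25 against the parental cells (adjusted p = 0.429). The vector lines also read higher than the parental cells, by 0.36 ± 0.28 (SE, adjusted p = 0.831). Without the line labelled MXD3 5 the difference from the 3 controls was 0.28, and with no background correction it was 0.16.

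The deacetylases HDAC1 and HDAC2, which are close paralogues and the enzymes of the SIN3 complex, varied little between lines. HDAC1 read 13.58, 13.54, 13.78, 13.65 and 13.51 across MXD3 lines 1 to 5, 13.52 and 13.56 with vector alone, and 13.73 in parental DAOY, a span in which the groups overlapped. Its difference from the controls was 0.01 ± 0.13 (SE, adjusted p = 0.983), with a 95% interval from 0.830-fold to 1.22-fold, and 0.08 ± 0.14 against the vector lines (adjusted p = 0.914). Leaving out the line labelled MXD3 5, which was the lowest of the 8, gave 0.04 from the controls.

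HDAC2 read 13.80, 13.68, 13.77, 13.91 and 13.61 across MXD3 lines 1 to 5, 13.63 and 13.50 with vector alone, and 13.78 in parental DAOY. Of the MXD3 lines, 4 lay above both vector lines, but the parental level fell among them. The difference was 0.12 ± 0.13 (SE) from the controls (adjusted p = 0.760), with a 95% interval from 0.888-fold to 1.33-fold, and 0.19 ± 0.14 from the vector lines (adjusted p = 0.783). Without the line labelled MXD3 5 it was 0.15 from the controls. It was 0.052 without vector line 2, 0.19 without the parental array and 0.038 with median centring.

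HDAC3, the catalytic subunit of the NCOR1 complex, read 10.98, 11.07, 11.05, 10.96 and 10.81 across MXD3 lines 1 to 5, 11.11 and 11.09 with vector alone, and 11.09 in parental DAOY. All 5 MXD3 lines lay below all 3 controls, whose levels spanned only 0.022. The MXD3 lines averaged 10.98 ± 0.10 (SD, n = 5), and the controls 11.10 ± 0.011 (SD, n = 3). The difference of -0.12 ± 0.12 (SE) did not pass the test across all probes (adjusted p = 0.727), and the 95% interval ran from 0.765-fold to 1.11-fold. The two-sided exact permutation test gave p = 0.0536, where the 56 splits of 5 against 3 allow no p below 0.0179. Against the vector lines the difference was -0.13 ± 0.14 (SE, adjusted p = 0.853), and without the line labelled MXD3 5, the lowest of the 8, it was -0.08 from the controls.

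SAP30, a subunit that binds SIN3 and steadies the deacetylase on it, read 11.41, 11.35, 11.08, 11.17 and 11.05 across MXD3 lines 1 to 5, 11.57 and 11.51 with vector alone, and 11.40 in parental DAOY. All 5 MXD3 lines lay below both vector lines, and 4 lay below the parental cells too. The means were 11.21 ± 0.16 (SD, n = 5) and 11.49 ± 0.087 (SD, n = 3). The difference of -0.28 ± 0.14 (SE) had the smallest p of the 9 genes, 0.0659 in limma, which ranked 2118 among the 15214 probes (adjusted p = 0.473). Its 95% interval ran from 0.667-fold to 1.02-fold. Against the vector lines it was -0.33 ± 0.16 (SE, adjusted p = 0.678), and without the line labelled MXD3 5 it was -0.24 from the controls. The unadjusted limma p of SAP30 against the 3 controls fell below 0.05 under some other settings. It was 0.0286 with no background correction and 0.0423 without MXD3 line 1, with adjusted p-values of 0.365 and 0.352. Under others it rose, to 0.126 without MXD3 line 3, 0.116 without the line labelled MXD3 5 and 0.129 without vector line 2.

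SAP18, a SIN3-associated subunit that is also part of a splicing complex, read 8.03, 8.20, 8.19, 7.77 and 8.22 across MXD3 lines 1 to 5, 7.44 and 8.22 with vector alone, and 8.07 in parental DAOY. The 2 vector lines lay at the bottom and among the highest of the 8 samples. The difference from the controls was 0.17 ± 0.20 (SE, adjusted p = 0.772), with a 95% interval from 0.831-fold to 1.53-fold, and 0.25 ± 0.23 against the vector lines (adjusted p = 0.814). Both values turned on vector line 1: without it they were -0.06 and -0.14, and without vector line 2 they were 0.33 and 0.64. Without the line labelled MXD3 5 the difference from the controls was 0.14.

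RBBP4, a histone-binding WD-repeat protein shared by several chromatin complexes, read 7.29, 7.65, 7.53, 7.50 and 7.54 across MXD3 lines 1 to 5, 7.79 and 7.71 with vector alone, and 7.65 in parental DAOY. All 5 MXD3 lines lay below all 3 controls, with line 2 at 7.646 and the parental cells at 7.651. The means were 7.50 ± 0.13 (SD, n = 5) and 7.72 ± 0.071 (SD, n = 3). The difference of -0.22 ± 0.13 (SE) did not pass (adjusted p = 0.535), and its 95% interval ran from 0.706-fold to 1.05-fold. The two-sided exact permutation p was 0.0536, and SAP30, whose groups overlapped, had the same value. The other corepressor genes except HDAC3 had 0.214 or more. Against the vector lines the exact permutation p was 0.0952 for RBBP4 and 0.143 for HDAC3, where the smallest possible is 0.0476. The RBBP4 difference from the vector lines was -0.25 ± 0.15 (SE, adjusted p = 0.723), and without the line labelled MXD3 5 it was -0.23 from the controls. With no background correction it was -0.13 from the controls.

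RBBP7, the paralogue of RBBP4, read 12.15, 12.12, 11.93, 11.67 and 11.70 across MXD3 lines 1 to 5, 12.05 and 12.04 with vector alone, and 11.92 in parental DAOY. MXD3 lines 1 and 2 lay above all controls and lines 4 and 5 below them. The difference from the controls was -0.09 ± 0.15 (SE, adjusted p = 0.851), with a 95% interval from 0.741-fold to 1.19-fold, and -0.13 ± 0.18 from the vector lines (adjusted p = 0.882). It was -0.04 from the controls without the line labelled MXD3 5, -0.03 without MXD3 line 4, -0.15 without MXD3 line 1 and -0.14 without MXD3 line 2.

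Group ranges without overlap were found for 2 of the 9 genes against all 3 controls, HDAC3 and RBBP4, and for 3 of the 9 against the vector lines alone, HDAC3, SAP30 and RBBP4. Each was lower in the MXD3 lines. Over all probes, 7.6% had no overlap in the first comparison and 12.8% in the second, in either direction. The separation from the parental cells was not seen in the authors' scaled values, which differ in background subtraction and scaling together, and the cause was not tested. With median centring alone it held for HDAC3 and RBBP4 and also for SAP30. In the authors' scaled values HDAC3 read 2129 in MXD3 line 2 and 2115 in MXD3 line 3, above the 2114 of the parental cells. RBBP4 read 182, 176 and 180 there in MXD3 lines 2, 4 and 5, above the parental 174. With those values 0 of the 9 genes were free of overlap against all 3 controls, and 4 of the 9 against the vector lines: HDAC3, SAP30 and RBBP4 lower and HDAC2 higher.

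**Figure D2:**
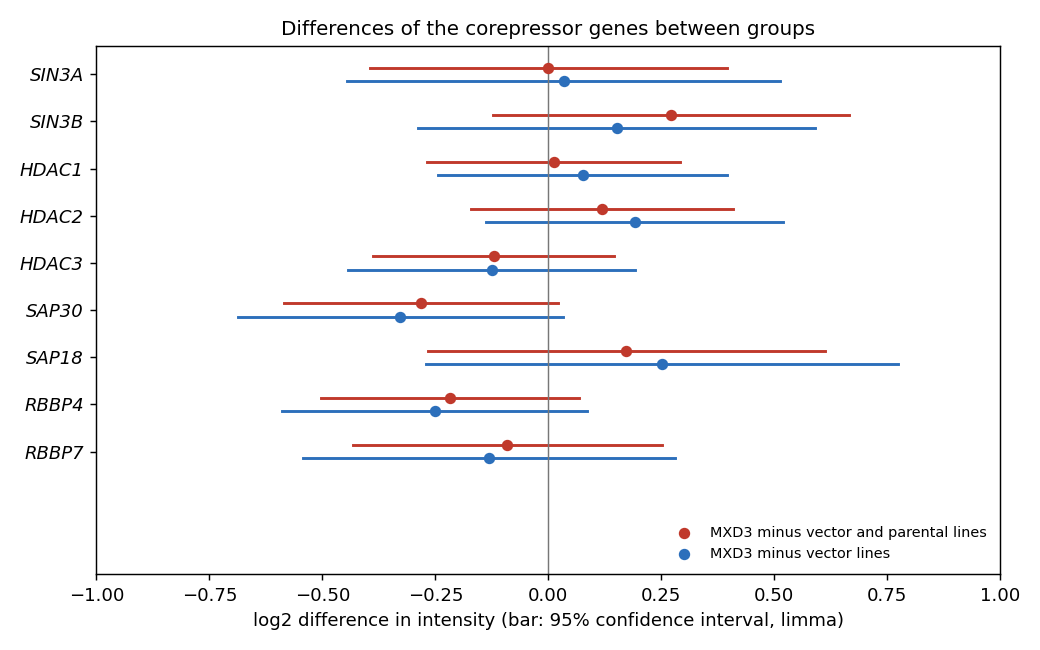
Log2 difference of each corepressor gene between the MXD3 lines and the controls, with limma's 95% interval, against the vector and parental lines (red) and against the vector lines alone (blue). All 18 intervals include 0, and those of SAP30 reach least far above it.

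The 95% intervals give the range of differences that remained compatible with these arrays. Against the 3 controls, the lowest bound of a decrease was 0.667-fold, for SAP30, and the highest bound of an increase was 1.59-fold, for SIN3B. The intervals of HDAC1, HDAC2 and HDAC3 together lay between 0.765-fold and 1.33-fold. None of the 9 differences exceeded 1 on the log2 scale, which 149 of the 15214 probes did in this comparison.

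Among the MXD3 lines themselves the corepressor genes spread by a median SD of 0.163, from 0.103 to 0.288, beside a median of 0.219 over the 11922 probes detected on all 8 arrays. SIN3A had the widest spread and SIN3B the next, at SDs of 0.29 and 0.25. No line stood out for all genes: the number of corepressor genes above the control mean was 5, 3, 5, 4 and 2 of 9 in MXD3 lines 1 to 5. The line labelled MXD3 5 had the lowest level of the 8 samples for HDAC1, HDAC3 and SAP30.

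Against the parental array alone, 2 of the 9 genes were higher in the MXD3 lines and 7 lower, and the differences ran from -0.19 for SAP30 to 0.52 for SIN3B. The vector lines differed from the parental cells by -0.24 for SAP18 to 0.36 for SIN3B, with 5 genes higher and 4 lower. These comparisons share the parental array, whose spread was taken to equal that of the stable lines. None of the 9 genes had an unadjusted p below 0.05 in either, beside 13% of all probes for the MXD3 lines and 7.48% for the vector lines, and 0.00657% of probes, 1 in each, passed the adjusted threshold.

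Because MXD and MAX bind the E-box CACGTG, the start regions of the corepressor genes were searched for it. RefSeq windows of 250 bases before to 50 after a gene's start (GRCh38.p14) were at hand for 9 of the 10 genes, 13 windows in all, with none for SAP18. The motif reads the same on both strands and was in 1 of the 13 windows, a window of RBBP4, beside 7.26% of all 35116 windows. A second RBBP4 window, chr1:32651106-32651405, did not hold it. RBBP4 and HDAC3 are shown as the genes whose MXD3 lines all lay below the controls: the RBBP4 window is chr1:32650958-32651257 on the plus strand, with the E-box in capitals starting 237 bases before the start, and the HDAC3 window is chr5:141636800-141637099 on the minus strand, with no E-box. A match is a description of the letters and does not show binding.
RBBP4: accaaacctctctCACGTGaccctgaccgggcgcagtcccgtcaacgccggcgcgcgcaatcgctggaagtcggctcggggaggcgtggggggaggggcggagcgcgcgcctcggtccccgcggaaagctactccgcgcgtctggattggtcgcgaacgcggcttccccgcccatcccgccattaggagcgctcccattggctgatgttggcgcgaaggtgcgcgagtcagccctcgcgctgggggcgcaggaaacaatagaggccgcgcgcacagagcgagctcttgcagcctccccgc
HDAC3: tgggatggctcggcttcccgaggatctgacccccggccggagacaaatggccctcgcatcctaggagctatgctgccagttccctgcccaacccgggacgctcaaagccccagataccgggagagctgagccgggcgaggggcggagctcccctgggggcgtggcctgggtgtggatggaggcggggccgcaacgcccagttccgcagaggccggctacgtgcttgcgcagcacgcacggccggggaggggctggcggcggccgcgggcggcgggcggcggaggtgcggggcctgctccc

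The other genes of the same pathway were read from 8 lists of related complexes, in which 65 genes were tested, MXD3 itself among them. None passed the adjusted threshold in limma against the 3 controls or against the vector lines, and 6 and 4 of the 65 had an unadjusted p below 0.05, beside 11.3% and 7.57% of all probes. Of the other SIN3 subunits, 10 of 13 were tested and had a median difference of 0.04, with 6 higher and 4 lower. PHF12, a PHD-finger subunit of SIN3, read higher in 5 of 5 MXD3 lines than in any control, by 0.51 ± 0.17 (SE, adjusted p = 0.344). Such a lack of overlap, in either direction, was found for 7.6% of all probes. The PHF12 difference from the vector lines was 0.34 ± 0.16, but a second PHF12 probe gave 0.27 and 0.06. BRMS1, another SIN3 subunit, differed by 0.30 ± 0.16 (SE, adjusted p = 0.499), and by 0.44 ± 0.16 from the vector lines (adjusted p = 0.619).

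Of the NuRD complex, which shares HDAC1, HDAC2, RBBP4 and RBBP7, 9 of 10 other genes were tested, 3 higher and 6 lower. Its remodelling ATPase CHD3 differed by -0.35 ± 0.22 (SE) and its subunit GATAD2B by 0.31 ± 0.21. The GATAD2B value rested on the parental array and was 0.05 ± 0.17 (SE) against the vector lines. The 6 CoREST genes, whose complex also holds HDAC1 and HDAC2, had 4 higher and 2 lower against the 3 controls, with a median of 0.09, but 2 higher and 4 lower against the vector lines, with a median of -0.09. The scaffold RCOR2 was at -0.24 ± 0.16 (SE) and the reader PHF21A at 0.15 ± 0.14 against the 3 controls, and at -0.31 and 0.06 against the vector lines. Of the HDAC3 complex, 3 other genes were tested, 1 higher and 2 lower. Its WD-repeat subunits TBL1XR1 and TBL1X were at -0.42 ± 0.24 (SE) and -0.19 ± 0.13, and at -0.58 ± 0.27 and -0.14 ± 0.15 against the vector lines. The complexes that share RBBP4 or RBBP7 had 4 of 8 tested genes higher and 4 lower, with EZH2, the methyltransferase of Polycomb complex PRC2, at -0.37 ± 0.16 (SE), or -0.23 by its second probe, and CHAF1B, of chromatin assembly factor CAF-1, at 0.32 ± 0.14. Among these genes the smallest adjusted p against the 3 controls was 0.440, for EZH2. Against the vector lines EZH2 was at -0.31 ± 0.19 (SE) and CHAF1B at 0.43 ± 0.15.

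Of the other histone deacetylases, 12 of 15 were tested, 5 higher and 7 lower, with HDAC9, a class IIa enzyme, at 0.78 ± 0.39 (SE, adjusted p = 0.481) and the tubulin deacetylase HDAC6 at 0.39 ± 0.21 (adjusted p = 0.501). The HDAC9 value rested on the parental array and was 0.27 ± 0.31 (SE) against the vector lines. A second HDAC9 probe gave 0.26 against the 3 controls and -0.24 against the vector lines. SIRT6 differed by -0.31 ± 0.21 (SE) from the 3 controls and by -0.57 ± 0.17 from the vector lines (adjusted p = 0.601). It was not lower than in the parental cells. The MXD3 lines read 6.66 to 7.17, the vector lines 7.62 and 7.42, and parental DAOY 6.74. Relative to the parental array the difference was 0.21 ± 0.23 (SE) for the MXD3 lines and 0.78 ± 0.25 for the vector lines. The SIRT6 p for MXD3 against vector lines, 0.00969 in limma, was the smallest of the 65 genes in that comparison. Histone acetyltransferases oppose the deacetylases. Of the 11 genes of that list, which counts TRRAP, a scaffold, 8 were higher and 3 lower against the 3 controls. Against the vector lines 6 were higher and 5 lower. The coactivator EP300 was at 0.65 ± 0.29 (SE, adjusted p = 0.444) against the 3 controls and 0.20 ± 0.15 against the vector lines, and HAT1, which acetylates newly made histones, was at -0.29 ± 0.14 and -0.15 ± 0.14 in the same comparisons.

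Of MAX and its partners that recruit SIN3, 3 of 6 were higher and 3 lower, with MXD3 itself among the higher ones. MNT, a MAX partner that binds SIN3 as MXD proteins do, lay higher in all 5 MXD3 lines than in every control, by 0.51 ± 0.14 (SE). Over all probes, 7.6% had no overlap in this comparison, in either direction. MNT had the smallest p of the 65 genes against the 3 controls, 0.00427 in limma. That p ranked 199 among the 15214 probes, with an adjusted p of 0.315. MAX itself differed by -0.51 ± 0.20 (SE, adjusted p = 0.385), but by -0.26 ± 0.16 (SE) from the vector lines alone, and its other 2 probes gave -0.29 and 0.14 against the 3 controls.

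**Figure D3:**
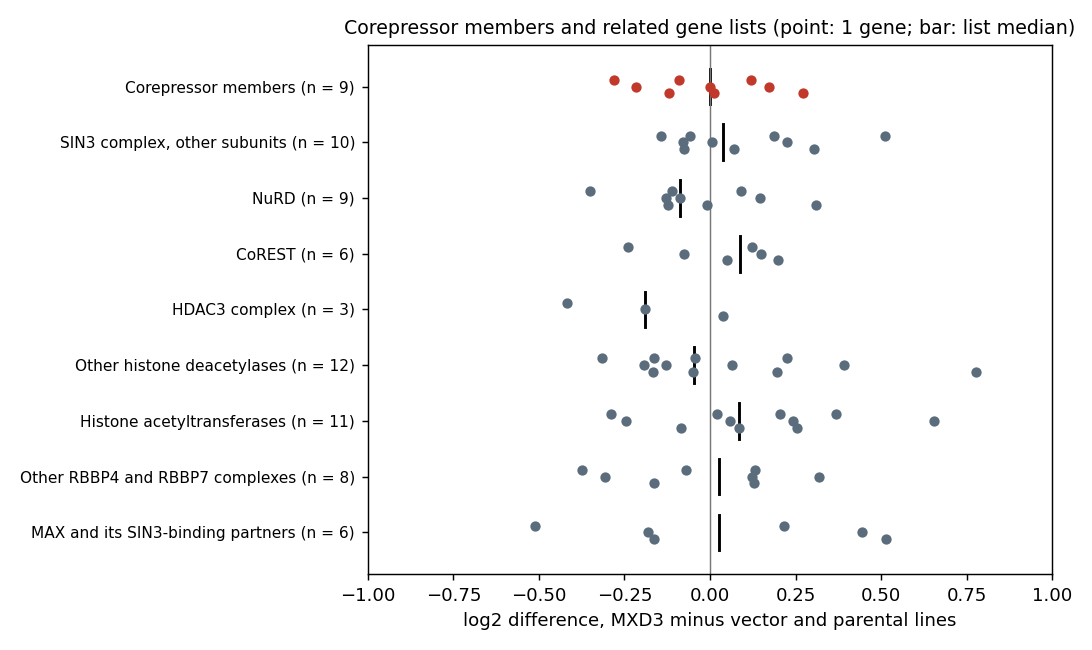
Log2 difference between the MXD3 lines and the vector and parental lines for the 9 corepressor genes (red) and for the genes of 8 related lists (grey); each point is 1 gene and black bars are list medians. The corepressor genes lie between -0.28 and 0.27, and the points farthest from 0 are HDAC9 and EP300, with no gene past the adjusted threshold.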

How the data were processed

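RNA of 8 samples (5 MXD3 lines, 2 vector lines, 1 parental sample) was read on Illumina bead arrays. The deposited table holds linear intensity values with no background subtracted, with a detection p-value for each, also as deposited. The lowest intensity of an array was 88.4 to 118 and the mean 1346 to 1797. The submitters' processing notes name BeadStudio, without a version. The authors' series matrix holds the same intensity values after 1 subtraction and 1 scaling per array (straight line, residuals up to 0.0121), with a mean of 1363 on each array and values below 0 for 2996 to 3304 probes. The sources used here do not say how the constants were set.

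Intensities were corrected and quantile-normalized with neqc (limma 3.58.1, R 4.3.3, offset 16), and probes with a detection p-value below 0.05 on at least 2 arrays were kept. Differences were fitted with lmFit and eBayes over 15214 probes, in a fit of 2 groups for the vector and parental lines together and of 3 groups otherwise, two-sided, with p-values adjusted over all probes by Benjamini-Hochberg. Intervals cover the spread between arrays, whose number limits the precision. The fit was tested on simulated data, with added changes larger than any corepressor difference given here. That test does not show how well smaller differences are found.

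Symbols came from the platform annotation, updated through Entrez IDs with RefSeq: 19715 probes had 1 symbol, 0 several and 2469 none. The 10 genes, the 8 related lists and the 7 marker lists were chosen with earlier results of these data known. From each related list the 2 genes with the smallest p were named, as none passed. A gene of these lists with several probes was read by its brightest. Alternatives covered background correction, scaling, the detection filter, 1 probe per gene, an intensity trend, a replicate block, leaving out each array and exact permutation tests. Probe sequences were not used here.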

Additional observations from a re-analysis of the deposited data

Results flagged for a closer look

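Of 26 genes checked for a line far from the others among the 5 MXD3 lines, the 9 corepressor genes among them, 1 was found, and none of the corepressor genes. HDAC9 read 8.24 in MXD3 line 1, while the other 4 MXD3 lines lay between 8.98 and 9.13. The gap to the nearest line was 0.825 of the group's whole range, past the critical value of 0.71 for 5 samples, and chance alone exceeds it in about 1 of 20 groups.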

How the results depend on the processing

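No probe passed the adjusted threshold against the vector and parental lines or against the vector lines under any alternative run, nor did any of the 9 corepressor genes. Against the parental array, 1 probe passed for the MXD3 lines, 3 with no background correction, 13 with the authors' values and 2 with an intensity trend. For the vector lines, leaving out a replicate gave 0 to 1. The genes without overlap against all 3 controls numbered 2, but 0 with the authors' values, and 2 to 3 when an array was left out. The causes were not tested.

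Some differences changed sign. SIN3A against the 3 controls was -0.052 with median centring, -0.064 with the replicate block and -0.066 to 0.12 when 1 array was left out. Against the vector lines it was -0.0057, -0.16 and -0.053 to 0.15. HDAC1 against the 3 controls was -0.0068 with the authors' values, -0.069 with median centring, -0.022 with the replicate block and -0.031 to 0.075 with an array left out. SAP18 ran from -0.063 to 0.33 against the 3 controls and from -0.14 to 0.64 against the vector lines. RBBP7 against the vector lines was 0.089 with the replicate block. Left-out arrays also turned GATAD2B (-0.050 to 0.14) and HDAC9 (-0.19 to 0.72) against the vector lines.

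The labels do not say that line numbers pair the samples, and lines 1 minus 2 correlated at -0.27 between MXD3 and vector lines. The replicate block changed no call, and moved SAP30 against the vector lines from -0.33 to -0.16. The number of arrays, 5 against 2 or 3, limits the precision to the intervals given.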

Other observations

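The parental array read low for several acetylation genes that are not corepressor members, and these were singled out after their values were seen. EP300 was at 7.47 in the parental cells, at 8.80 and 8.89 in the vector lines and from 8.88 to 9.20 in the MXD3 lines, so all 7 stable lines lay above it. TRRAP, a scaffold of acetyltransferase complexes, was at 11.40 in the parental cells against 12.54 and 12.48 in the vector lines and 12.04 to 12.84 in the MXD3 lines. KAT6A, a MYST-family acetyltransferase, was at 10.05 against 10.80 and 11.15 in the vector lines and 10.89 to 11.13 in the MXD3 lines. The MXD3 lines exceeded the parental cells by 1.57 ± 0.20 (SE) for EP300, with an adjusted p of 0.0924 in limma, the smallest of the acetyltransferases.

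HAT1 ran the other way, at 11.04 in the parental cells and 10.38 to 10.69 in the stable lines. So did KAT2A, at 11.15 in the parental cells and 10.56 to 10.90 in the stable lines. Against the parental array, 6 of the 11 acetyltransferases, with the scaffold TRRAP counted among them, were higher in the MXD3 lines and 5 were lower. Of the 11 acetyltransferases, 4 were higher and 2 lower in the MXD3 lines at an unadjusted p below 0.05, beside 13% of all probes. There was 1 parental array, the stable lines differ from it in transfection and G418 selection as well, and none of these genes passed the adjusted threshold.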
